A study of Saccharomyces cerevisiae with 8 samples.

Results

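The Saccharomyces cerevisiae strains studied carried either the histone acetyltransferase gene ESA1 or an esa1 mutation. In them, transcripts of 7 yeast genes with names from the COS and PAU series were followed: COS2, COS4, COS6, COS111, PAU9, PAU17 and PAU23. They were taken by gene symbol from the platform annotation, which gives 9 probe sets for them, out of 5498 probe sets of 5449 single yeast genes. They are also the genes of these names that passed the filter on dim probe sets described below, out of 22 such genes with a probe set on the array. The members were listed with results of these data in view, so their own differences are given as a description, with no test.

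COS genes encode multispan membrane proteins, mostly coded near telomeres, that help carry other plasma membrane proteins through endosomes to the vacuole for breakdown. PAU genes encode seripauperins, small relatives of the serine-rich TIR cell wall mannoproteins, and many of them are known to be transcribed more strongly when oxygen is short. Genes close to yeast telomeres can be held silent by Sir proteins acting on deacetylated histones. Near-identical copies are common in both families, so an array probe for a member can also bind the transcripts of others.

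Expression was measured on 8 Affymetrix yeast arrays. The wild type (ESA1 SUP2) was read on 2 of them. The mutation that the labels call sup2- was present alone in the single mutant (ESA1 sup2-, 3 arrays) and together with the esa1 mutation in the double mutant (esa1 sup2-, 3 arrays). ESA1 codes for the essential catalytic subunit of the NuA4 histone acetyltransferase complex, and sup2- is described as a bypass suppressor, which lets cells live without that function. All strains were grown overnight to saturation at 30 °C in 10 mL of rich medium with 2% glucose. The sources used here do not give which gene SUP2 is, the alleles, the strain background or the number of clones. It is not stated either that the replicates are separate cultures, and the p-values therefore refer to the spread among these arrays alone, which may be technical.

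The labels were checked on ESA1 itself. The wild-type arrays read 1216 and 1067 and those of the single mutant 819, 894 and 877. The 3 double-mutant arrays read 1.19, 3.34 and 0.27, none of them above background. Values are array signals on a linear scale, already brought to a common mean of about 500.2 by the authors. The level of background ran from 8.23 to 12.4 over the arrays. Each strain was run on a fluidics station of its own, so station and strain cannot be told apart. Precision is limited by the small number of arrays.

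Of the 7 genes, 4 lie among the 10 outermost annotated genes of a chromosome end and 3 lie further in. COS2 (YBR302C) is the outermost gene of the right end of chromosome II. COS6 (YGR295C) is gene 2 from the right end of chromosome VII, COS4 (YFL062W) is gene 6 from the left end of chromosome VI, and PAU9 (YBL108C-A) is gene 4 from the left end of chromosome II. PAU17 (YLL025W) is gene 40 and PAU23 (YLR037C) gene 106 from the left end of chromosome XII. COS111 (YBR203W) is gene 103 from the right end of chromosome II, and it is not a relative of the COS family: its name refers to sensitivity to the antifungal ciclopirox olamine. The description as subtelomeric COS and PAU genes therefore holds for COS2, COS4, COS6 and PAU9.

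How specific a reading is depends on the probe set. Those whose name ends in _at are designed for 1 transcript, those in _s_at hold probes common to several transcripts, and those in _x_at hold some probes that match other transcripts closely. COS2 and COS4 were read by _s_at sets and PAU9 by an _x_at set, COS6 and COS111 by _at sets, and PAU17 and PAU23 by both an _at and an _x_at set. In all, 5 of the 9 probe sets were shared in this way, and their values may include transcripts of relatives.

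COS2, COS4 and COS6 were lower in both mutants than in the wild type, and PAU9 followed at a smaller size. COS4 and COS6 were lower in the single mutant and lower again in the double mutant. COS2 was already low in the single mutant. COS111 was higher in the single mutant and lower in the double mutant. PAU17 and PAU23, by their unshared probe sets, were higher in the double mutant than in either other strain.

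COS2 had signals of 3593 and 3776 on the wild-type arrays. Those of the single mutant were 333, 141 and 191, and those of the double mutant 119, 254 and 142. Both wild-type arrays stood far above all 6 mutant arrays, and the mutant strains overlapped. The means were 3684 ± 129 (SD, n = 2), 222 ± 99.8 (SD, n = 3) and 172 ± 72.1 (SD, n = 3), so the wild type was 16.6-fold above the single mutant and 21.4-fold above the double mutant. On the scale of log2(signal + 121), which understates the change of dim genes, the single mutant lay at -3.51 (SE 0.24) and the double mutant at -3.73 (SE 0.24) relative to the wild type. The difference between the mutants was -0.22 (SE 0.21). It was 0.01 without single-mutant replicate 1, the brightest of that strain.

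COS4 read 3258 and 3167 in the wild type. The single mutant gave 1559, 1348 and 1744, and the double mutant 341, 586 and 322. The strains did not overlap, with the wild type highest and the double mutant lowest. The strain means were 3213 ± 64.6 (SD, n = 2), 1550 ± 198 (SD, n = 3) and 416 ± 147 (SD, n = 3). The wild type was 2.07-fold above the single mutant, and the single mutant 3.73-fold above the double mutant. On the log2 scale these steps were -1.003 (SE 0.19) and -1.66 (SE 0.17), and the double mutant lay at -2.67 (SE 0.19) relative to the wild type.

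COS6 is the 1 COS family gene among the 7 read by an unshared probe set. The wild type gave signals of 997 and 912, the single mutant 571, 478 and 581, and the double mutant 131, 241 and 107. The strains did not overlap and came in the same order as for COS4. Their means were 955 ± 60.4 (SD, n = 2), 543 ± 56.7 (SD, n = 3) and 159.8 ± 71.0 (SD, n = 3). The wild type was 1.76-fold above the single mutant, which was 3.40-fold above the double mutant, and the log2 differences were -0.70 (SE 0.18) and -1.27 (SE 0.16).

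Within the double mutant, replicate 2 was the highest of the 3 arrays for COS2, COS4 and COS6. Over all 5449 genes, replicate 2 was the highest in 32.8%. It was the highest for 5 of the 8 COS family genes with a probe set, and its median log2 excess over the mean of replicates 1 and 3 was 0.44 for those genes and -0.02 for all genes. It was also the highest for 6 of 13 PAU family genes (46.2%, median excess 0.04) and for 99 of 224 outermost genes of chromosome ends (44.2%, median excess 0.03). Its part in the double-mutant values of the COS genes was not tested further than by leaving that array out. Over 19 alternatives each, leaving out arrays and changing the scaling included, the difference between the double and single mutant ran from -1.94 to -1.46 for COS4 and from -1.84 to -1.06 for COS6.

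COS111 showed another pattern. It read 624 and 567 in the wild type, 822, 774 and 728 in the single mutant, and 426, 417 and 364 in the double mutant. All single-mutant arrays lay above the wild-type arrays, and all double-mutant arrays lay below both other strains. The means were 596 ± 40.3 (SD, n = 2), 775 ± 47.1 (SD, n = 3) and 402 ± 33.5 (SD, n = 3). The single mutant was 1.30-fold above the wild type, and the double mutant was 1.93-fold below the single mutant and 1.48-fold below the wild type. The log2 differences were 0.32 (SE 0.09), -0.78 (SE 0.08) and -0.45 (SE 0.09).

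PAU9 was read by a shared probe set, at 863 and 894 in the wild type. It gave 591, 569 and 651 in the single mutant and 401, 561 and 475 in the double mutant. The strains did not overlap, although the highest double-mutant array, 561, came close to the lowest single-mutant array, 569. With means of 878.5 ± 21.7 (SD, n = 2), 604 ± 42.6 (SD, n = 3) and 479 ± 80.1 (SD, n = 3), the log2 difference from the wild type was -0.47 (SE 0.11) in the single and -0.74 (SE 0.11) in the double mutant. Between the mutants it was -0.28 (SE 0.10), and -0.08 under scaling to the poly-A controls of the array.

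PAU17 had unshared readings of 697 and 704 in the wild type, 614, 659 and 707 in the single mutant and 926, 826 and 899 in the double mutant. The first 2 strains overlapped, and every double-mutant array lay above them. Its means were 701 ± 4.72 (SD, n = 2), 659.9 ± 46.8 (SD, n = 3) and 884 ± 51.7 (SD, n = 3). The double mutant lay at 0.36 (SE 0.08) on the log2 scale relative to the single mutant and at 0.29 (SE 0.08) relative to the wild type.

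PAU23 is also listed as DAN2. Its unshared probe set read 2443 and 2345 in the wild type, 1708, 1893 and 1785 in the single mutant, and 2908, 2914 and 3732 in the double mutant. The strains did not overlap, with the single mutant lowest and the double mutant highest. The means were 2394 ± 68.7 (SD, n = 2), 1796 ± 92.9 (SD, n = 3) and 3185 ± 474 (SD, n = 3). The double mutant was 1.77-fold above the single mutant and 1.33-fold above the wild type. The single mutant differed from the wild type by -0.39 (SE 0.11) on the log2 scale, and the double mutant differed from the single mutant by 0.78 (SE 0.10).

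**Figure D1:**
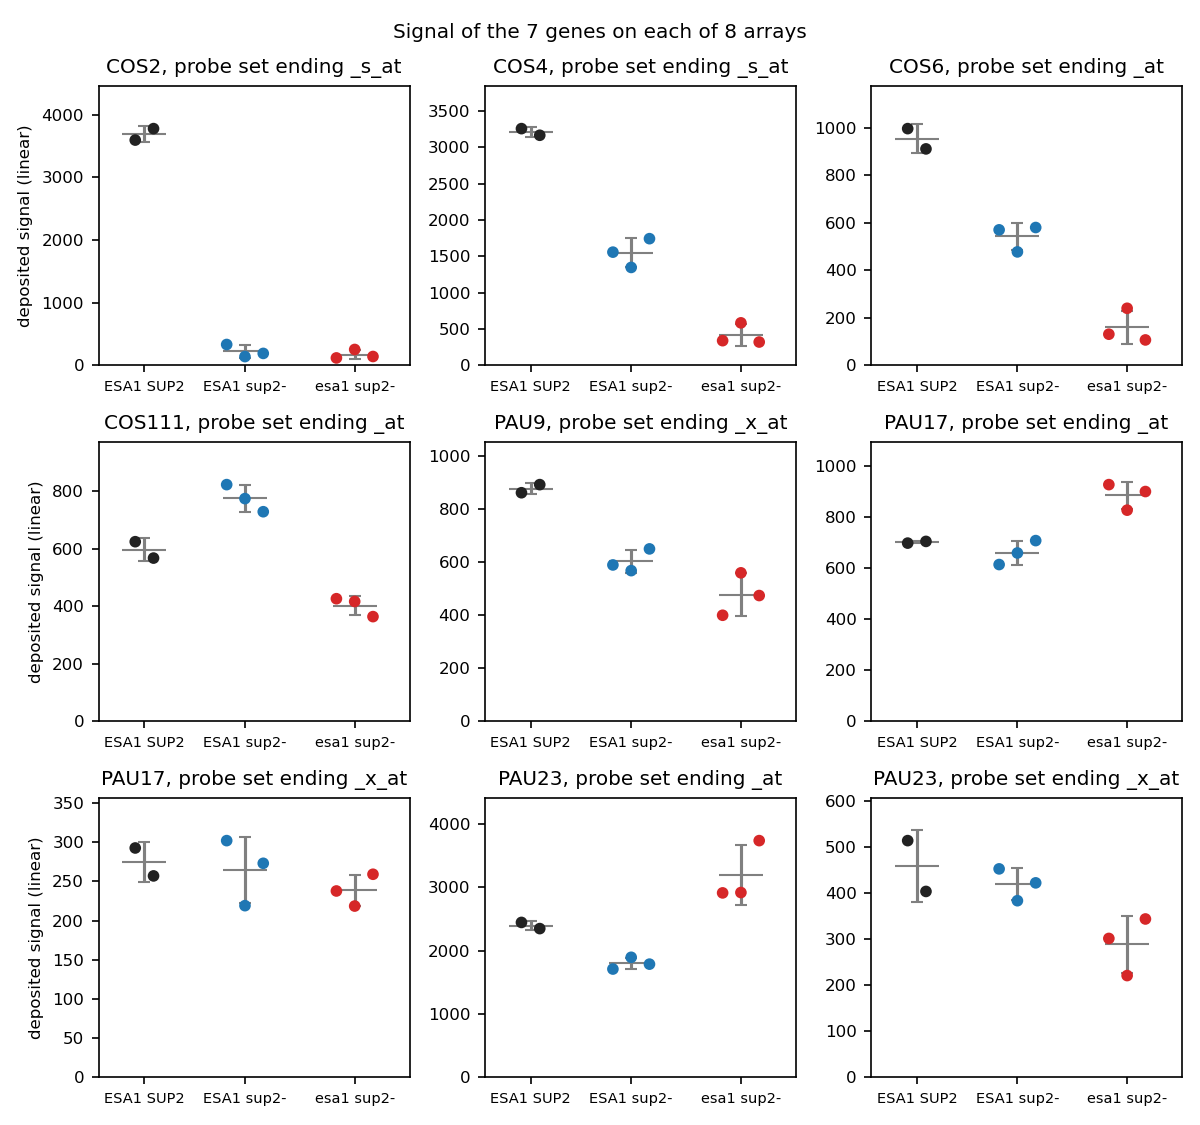
Signal of the 9 probe sets of the 7 genes on the 8 arrays, on linear axes that start at 0. Each point is 1 array, and the grey lines give the mean and SD of each strain. COS2, COS4 and COS6 are highest in the wild type (ESA1 SUP2), while PAU17 and PAU23 by their _at sets are highest in the double mutant (esa1 sup2-).

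The shared probe sets of PAU17 and PAU23 did not follow the unshared ones. PAU17 by its _x_at set read 293 and 257 in the wild type, 302, 219 and 273 in the single mutant, and 238, 219 and 259 in the double mutant, with all strains overlapping. The log2 difference of the double mutant from the single mutant was 0.36 (SE 0.08) by the unshared set and -0.10 (SE 0.09) by the shared set. PAU23 by its _x_at set read 513 and 403, then 452, 383 and 422, then 301, 221 and 343 in the same order of strains. Here the double mutant lay below both other strains, at -0.41 (SE 0.12) relative to the single mutant, where the unshared set lay above it at 0.78 (SE 0.10). The direction given for PAU23 therefore depends on which probe set is read. Which transcripts bound the shared sets was not tested.

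**Figure D2:**
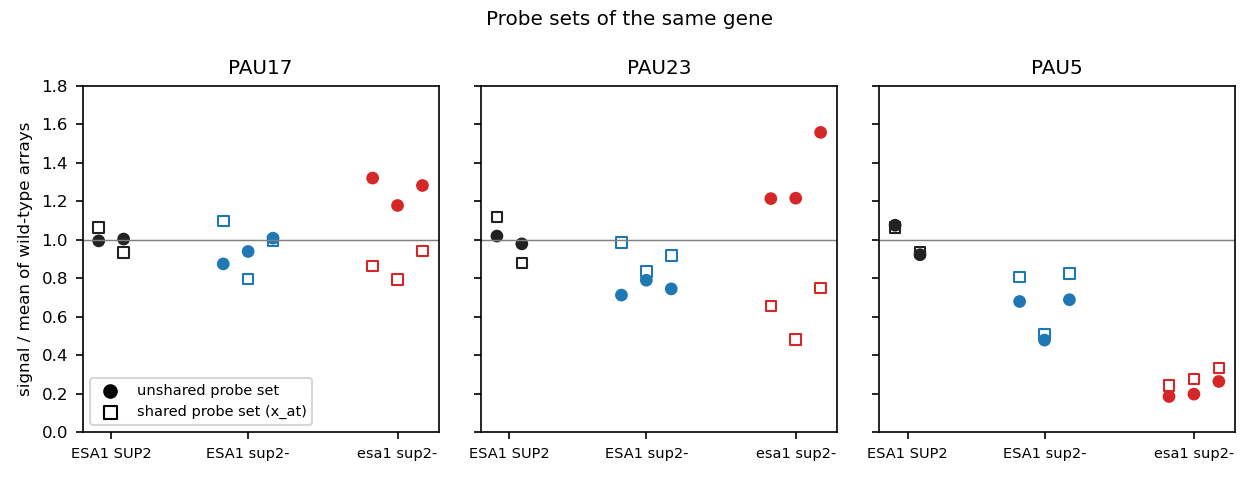
Signal of each array divided by the mean of the wild-type arrays, for the 3 PAU genes with both kinds of probe set. Filled circles are unshared probe sets and open squares shared ones. In the double mutant the sets part for PAU17 and PAU23, while for PAU5, which is not among the 7 genes, both are low.

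Counted by the brightest probe set of each gene, 5 of the 7 genes had all single-mutant arrays below both wild-type arrays (COS2, COS4, COS6, PAU9 and PAU23), and COS111 had all of them above. Over all 5498 probe sets, 38.7% were lower and 37.9% higher without overlap in that comparison. From the single to the double mutant, 4 genes were lower without overlap (COS4, COS6, COS111 and PAU9), against a background of 39.1%, and PAU17 and PAU23 were higher, against 29.8%. Relative to the wild type, the double mutant was lower without overlap for 5 genes (background 43.3%) and higher for 2 (background 38.1%). These comparisons share arrays, and nothing is read from the counts, since the genes were listed with the differences known.

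The profiles of the 7 genes differed among themselves. The measure of likeness was the root mean square difference between log2 profiles over the 8 arrays, each centred on its own mean, where 0 is an identical shape. COS4 and COS6 were close, at 0.28, and COS2 was far from both, at 1.01 and 1.11. The unshared sets of PAU17 and PAU23 differed by 0.21. The sets of PAU23 differed from each other by 0.54, while the shared sets of PAU17 and PAU23 differed by 0.19.

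Among the 4398 probe sets that passed the filter, the nearest profile to COS2 was AQY1, a water channel gene, at 0.32, with mean signals of 2744, 191 and 146 in the wild type, single and double mutant. SPS100, a gene of spore wall maturation, followed at 0.52 and THI13, a thiamine precursor gene, at 0.56. The genes nearest to COS4 were YIL014C-A (0.19), SUE1 (0.20) and LEE1 (0.21), and the nearest to COS6 were JID1 (0.12), CLD1 (0.17) and UIP4 (0.17). The closest to COS111 was IML1, a regulator of TORC1 signalling, at 0.07, followed by SAP1 and TAF11. Nearest to PAU9 were VPS55, IES2 and NVJ1, at 0.07 to 0.09. The unshared sets of PAU17 and PAU23 were nearest to DBP5 (0.05), AFR1 and MED1, and to TOM7 (0.08), SWS2 and TOM22. Their shared sets had other neighbours: MRPL6, VPS53 and RNA14 for PAU17, and NUP188, ECM22 and RTT103 for PAU23.

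None of the other 15 COS and PAU genes with a probe set, 5 COS and 10 PAU, passed the filter, which left out the lowest 20% of mean log2 values. The lowest value that passed was 8.53. The shared set of PAU17 passed at 8.56, and COS8, the highest of the other genes, fell short at 8.43. COS2 passed at 9.18 through its wild-type arrays, with means of 8.38 and 8.17 in the mutants. COS6 passed at 9.07 through its wild-type and single-mutant arrays, with a mean of 8.10 in the double mutant. The shared set of PAU17 also lay below the edge there, at 8.49. The other 15 genes were therefore tested in a fit of all 5498 probe sets with no filter. A probe set was called at a limma adjusted p under 0.05.

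Lower levels in the mutants than in the wild type were frequent in the rest of both families. No other COS or PAU gene was called higher in any comparison of this fit. Between the wild type and the single mutant, 3 of 5 other COS genes and 6 of 10 other PAU genes were called lower, where 23.4% of all probe sets were called lower and 26.1% higher. Their median log2 differences were -0.55 and -0.44, and that of all probe sets was -0.01. From the single to the double mutant, 2 COS and 6 PAU genes were called lower (background 36.9%, and 27.7% for higher), with medians of 0.02 and -0.25 beside -0.06 for all. Relative to the wild type, the double mutant had 4 COS and 8 PAU genes called lower (background 38.9%, and 33.8% for higher), with medians of -0.58 and -0.75 beside -0.04 for all. Of the 15 genes, 12 lie among the 10 outermost of a chromosome end. Among the outermost genes outside both families, 41.8%, 55.8% and 63.0% were called lower in this fit, in the same order of comparisons. Shared probe sets read 10 of the 15 genes, so the calls are not independent readings. Without wild-type replicate 1, the count of PAU genes called lower in the single mutant was 3 in place of 6. The counts from the single to the double mutant were 0 COS and 3 PAU genes under quantile normalization and under median centring, 1 COS gene under scaling on poly-A controls, 1 COS and 3 PAU genes without double-mutant replicate 1, and 1 COS gene without double-mutant replicate 2.

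COS7, the outermost gene of the left end of chromosome IV, gave a pattern much like that of COS2. Its shared probe set read 1286 and 1122 in the wild type, 55.6, 62.2 and 49.3 in the single mutant, and 22.5, 22.8 and 30.4 in the double mutant. The wild-type arrays were separate from all others, with a log2 difference of -2.90 (SE 0.07, limma adjusted p = 9.5e-08) in the single mutant. The double mutant was lower than the single mutant by a further -0.27 (limma adjusted p = 4.9e-03), a call that was lost under quantile normalization, median centring and scaling on poly-A controls, where the highest adjusted p was 0.090.

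COS8, gene 4 from the left end of chromosome VIII, has an unshared probe set. Its signals were 1375 and 1564 in the wild type, 42.0, 31.0 and 42.5 in the single mutant, and 25.1, 811 and 20.1 in the double mutant. Double-mutant replicate 2 stood apart by the largest excess of that array over the other double-mutant arrays among all 5449 genes. COS8 was lower in the single mutant by -3.32 (SE 0.69, limma adjusted p = 4.3e-03) and in the double mutant by -2.57 (limma adjusted p = 8.6e-03) relative to the wild type. Without double-mutant replicate 2 the latter value was -3.47 (limma adjusted p = 2.5e-07).

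The remaining COS genes were dim. COS10 had signals of 81.9 and 70.8 in the wild type and 6.64 to 21.4 in the single mutant, a fall of -0.55 (limma adjusted p = 1.6e-03). COS9 read 152 and 142, then 104, 113 and 96.7, then 41.2, 46.9 and 93.0, and its double mutant was lower than the wild type by -0.58 (limma adjusted p = 1.2e-03). The step of COS9 between the mutants, -0.33 (limma adjusted p = 0.017), was not called without double-mutant replicate 1 or 2, under quantile normalization or under median centring. COS12 was not above background on any of the 8 arrays.

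Among the other PAU genes, the largest falls in the single mutant were those of PAU8, PAU7 and PAU14. PAU8, the outermost gene of the left end of chromosome I, read 228 and 175 in the wild type, 84.5, 68.8 and 67.3 in the single mutant and 43.9, 100.4 and 74.6 in the double mutant. Its log2 difference was -0.72 (SE 0.12, limma adjusted p = 1.4e-03) in the single mutant, with the mutants overlapping. PAU14 fell by -0.64 in the single mutant (limma adjusted p = 0.041). That call was lost without either wild-type array, without any single-mutant array, with the replicate number as a block and with pseudocounts of 1 and 16, where the adjusted p reached 0.167.

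PAU7 was lower at each step, like COS4 and COS6. It gave 501 and 392 in the wild type, 243, 195 and 284 in the single mutant and 71.0, 91.9 and 101 in the double mutant, with no overlap. The log2 differences were -0.65 (SE 0.12, limma adjusted p = 2.7e-03) and then -0.79 (SE 0.11, limma adjusted p = 3.2e-04). PAU5, by its unshared set, read 346 and 297, then 219, 154 and 222, then 60.1, 64.0 and 85.2. It was lower in the double mutant than in the single mutant by -0.74 (SE 0.10, limma adjusted p = 2.3e-04), and its shared set gave -0.66 in the same comparison. PAU2 overlapped between the wild type and the single mutant and was lower in the double mutant than in the single mutant by -0.92 (SE 0.10, limma adjusted p = 9.8e-05). The fall of PAU5, PAU7 and PAU2 was opposite in direction to the unshared readings of PAU17 and PAU23, though all 5 genes lie further in than the 10 outermost genes of an end. PAU7 and PAU2 were read by shared sets only. The shared set of PAU23 also fell between the mutants, at -0.41, and that of PAU17 lay at -0.10 with overlapping arrays. PAU4 and PAU18 overlapped in all comparisons and were not called in any.

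**Figure D3:**
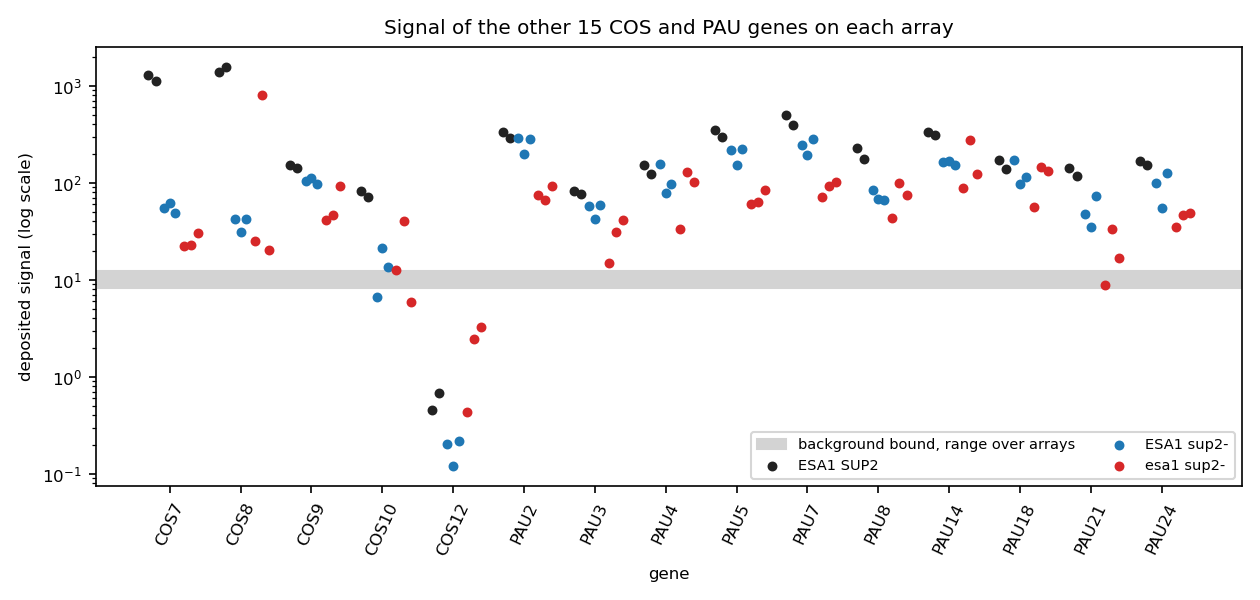
Deposited signal of the other 15 COS and PAU genes on each of the 8 arrays, on a log axis. Points are arrays and the grey band is the range of the background level, 8.23 to 12.4. COS7 and COS8 are above 1000 in the wild type and below 70 on the mutant arrays, except for COS8 at 811 on double-mutant replicate 2.

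The genes next to COS2, COS4, COS6 and PAU9 were also read, up to 3 on each side, chosen by position after the values were seen. Of the 14 neighbours with a probe set, 11 were called lower and 2 higher in the single mutant relative to the wild type in the fit with no filter, 13 lower and none higher between the mutants, and 12 lower and none higher in the double mutant relative to the wild type. The shares of all probe sets called lower in that fit were 23.4%, 36.9% and 38.9%, and those called higher 26.1%, 27.7% and 33.8%. The count of 11 was 6 without wild-type replicate 1 and 7 without replicate 2. Of the 14 genes, 10 were read by shared probe sets, and of the other 4, 3 were called lower in each comparison, though not the same 3. YBR298C-A and MIX23 were lower in all, MAL11 in both comparisons with the wild type, and SRO77 between the mutants. Beside COS4, the vitamin B6 genes SNO3 and SNZ3 went from mean signals of 1201 and 1470 in the wild type to 155 and 397 in the single mutant and 45.4 and 98.3 in the double mutant. DDI3 went from 330 to 130 and 18.9, YFL065C from 322 to 197 and 24.7, and YFL064C from 70.8 to 39.3 and 11.5. Those 5 probe sets were all of the shared kind. Next to PAU9, MIX23 went from 766 to 208 and 157, and the shared sets of YBL112C and YBL111C from 1320 and 734 to 631 and 318 and to 267 and 101. YBL113C, the outermost gene there, went from 3798 to 2333 and 851, and was not called at the first step. Near COS2, PAU24, also listed as DAN3, went from 160 to 93.5 and 43.9, and the dim YBR298C-A from 44.4 to 30.5 and 14.6. MAL11, the maltose transporter gene, was the 1 neighbour of COS6 with a probe set, and went from 309 to 197 and 146. Its step between the mutants was not called (limma adjusted p = 0.148). The 2 genes called higher in the single mutant were MAL32, a maltase gene near COS2 read by a shared set, with means of 184, 442 and 157, and SRO77, near PAU9, with 102, 211 and 110.

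The position of a gene was compared with its change over all chromosome ends, leaving out the 7 genes. In the fit with the filter, 50.6% of all probe sets were called in the single mutant relative to the wild type, 67.6% between the mutants and 74.5% in the double mutant relative to the wild type. Of 91 genes that lie among the 10 outermost of an end and passed the filter, 30 (33.0%) were called lower in the single mutant than in the wild type, 55 (60.4%) from the single to the double mutant and 57 (62.6%) in the double mutant relative to the wild type. For the 4274 genes further in, these shares were 22.0%, 35.4% and 36.1%. Called higher were 17, 18 and 19 of the 91 genes (18.7%, 19.8% and 20.9%), beside 28.5%, 31.7% and 38.0% of the genes further in. The median log2 differences of the 91 genes were -0.17, -0.53 and -0.57, where the genes further in had 0.01, -0.02 and 0.02. Genes dim in the double mutant could pass the filter through the other arrays. With no filter, 94, 121 and 140 of 220 outermost genes were called lower (42.7%, 55% and 63.6%) and 27, 20 and 24 higher (12.3%, 9.1% and 10.9%). The shares called lower among the genes further in were then 22.6%, 36.3% and 38.0%, and those called higher 26.5%, 28.3% and 34.6%. The difference between the classes was not tested. Without wild-type replicate 2, and likewise with scaling on poly-A controls, 18 in place of 30 of the 91 genes were called lower in the single mutant.

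**Figure D4:**
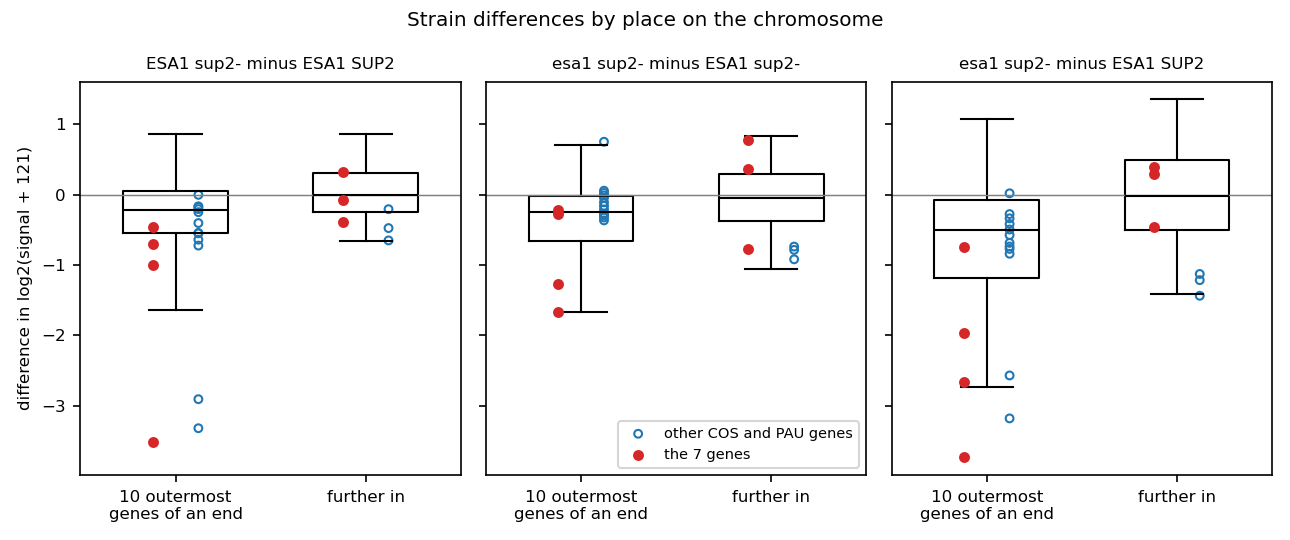
Differences in log2(signal + 121) between strains, for genes among the 10 outermost of a chromosome end and for genes further in, with no filter on dim probe sets. Boxes give the median and quartiles and whiskers the 5th to 95th percentile of all genes but the 7, which are the red points. Open circles are the other COS and PAU genes. The boxes of the outermost genes lie lower, with medians of -0.22, -0.24 and -0.50, and COS2, COS4 and COS6 lie below those medians in each panel, except for COS2 at -0.22 between the mutants.

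Relatives of the COS genes, the DUP240 membrane proteins, had 5 genes with a probe set. With no filter 3 were called lower in the single mutant relative to the wild type and 3 between the mutants. In the double mutant relative to the wild type 4 were called lower, and none was called higher in any comparison. Of all probe sets, 23.4%, 36.9% and 38.9% were called lower in these comparisons and 26.1%, 27.7% and 33.8% higher. Both genes that passed the filter were called lower in each comparison of the fit with it, where 22.1%, 35.8% and 36.6% of probe sets were. Of these, PRM8 passed it through the arrays where it is high, so that count is not read as a result on the list. PRM8, a gene named for its pheromone response, had means of 947 ± 69.2 (SD, n = 2), 507 ± 13.2 (SD, n = 3) and 164 ± 9.64 (SD, n = 3). The steps were -0.77 (SE 0.07, limma adjusted p = 7.9e-05) and -1.14 (SE 0.07, limma adjusted p = 1.7e-06) on the log2 scale, in the order of COS4 and COS6. UIP3 went from 2396 to 1735 and 657, with -0.44 at the first step (limma adjusted p = 2.4e-03), a call lost under scaling on poly-A controls (limma adjusted p = 0.17), and -1.25 at the second (limma adjusted p = 1.8e-06).

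The endosomal sorting genes, whose products act in the pathway that Cos proteins feed, had 17 genes that passed the filter. In the single mutant 11 were called lower and 1, STP22, higher (a call lost with pseudocounts of 1 or 16 and without either wild-type array), where 22.1% of all probe sets were called lower and 28.5% higher. From the single to the double mutant 8 were called lower and none higher (background 35.8% and 31.8%), and relative to the wild type 12 lower and 1, VPS36, higher (background 36.6% and 37.9%). SNF8, of the ESCRT-II complex, was lower in the single mutant by -0.68 (SE 0.10, limma adjusted p = 6.4e-04). VPS28 and STP22, of ESCRT-I, fell from the single to the double mutant by -0.41 (SE 0.07, limma adjusted p = 6.9e-04) and -0.86 (SE 0.08, limma adjusted p = 2.6e-05). The call of VPS28 was lost under scaling on poly-A controls (-0.20, limma adjusted p = 0.361). The list's count of lower genes in the single mutant was 5 without wild-type replicate 1, 6 with scaling on hybridisation controls and 3 with scaling on poly-A controls. From the single to the double mutant it was 4 with median centring and 1 with poly-A scaling, and relative to the wild type 5 with poly-A scaling.

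The TIR and DAN cell wall genes, relatives of the PAU genes, had 7 genes with a probe set. PAU24, listed here as DAN3, is also counted above among the other PAU genes and the neighbours of COS2. With no filter 1 was called higher and 2 lower in the single mutant relative to the wild type, 2 higher and 2 lower between the mutants, and 4 higher and 2 lower, DAN4 and PAU24, in the double mutant relative to the wild type. The shares of all probe sets called higher in that fit were 26.1%, 27.7% and 33.8%, and those called lower 23.4%, 36.9% and 38.9%. TIR1 and TIR3 passed the filter through the arrays where they are high, so their rise is given as values of those genes and not as a result on the list. TIR1 had means of 92.4 ± 14.7 (SD, n = 2), 249.7 ± 149 (SD, n = 3) and 2222 ± 508 (SD, n = 3). Its double mutant was above the single mutant by 2.74 (SE 0.30, limma adjusted p = 6.6e-05). The unshared sets of PAU17 and PAU23 went in the same direction, and PAU7, PAU5, PAU2 and the shared set of PAU23 in the opposite one. TIR3 had 112 ± 10.2 (SD, n = 2), 1031 ± 688 (SD, n = 3) and 2092 ± 52.6 (SD, n = 3). Its double mutant was above the wild type by 3.25 (SE 0.53, limma adjusted p = 4.7e-04), while its call between the mutants (limma adjusted p = 0.047) was lost in 11 of 20 alternatives. Its call in the single mutant (2.03, limma adjusted p = 0.012) was lost without either wild-type array, with adjusted p up to 0.069.

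Other genes of low oxygen and heme, the setting in which many PAU genes are known to be transcribed, had calls in both directions. Of 14 genes that passed the filter, 4 were called higher and 2 lower in the single mutant, 4 higher and 6 lower from the single to the double mutant, and 5 higher and 4 lower in the double mutant relative to the wild type. These are 28.6% and 14.3% of the list, beside 28.5% and 22.1% of all probe sets. Between the mutants they are 28.6% and 42.9% beside 31.8% and 35.8%, and relative to the wild type 35.7% and 28.6% beside 37.9% and 36.6%. With no filter, 18 genes had a probe set, and 7, 8 and 9 were called higher in the same order of comparisons. These were 38.9%, 44.4% and 50% of the list, beside 26.1%, 27.7% and 33.8% of all probe sets. Called lower with no filter were 2, 6 and 4 (11.1%, 33.3% and 22.2%), beside 23.4%, 36.9% and 38.9%. HEM13, a heme synthesis enzyme gene raised when oxygen is short, rose between the mutants by 1.11 (SE 0.14, limma adjusted p = 1.2e-04), as was COX5B, the low-oxygen form of a cytochrome oxidase subunit, by 1.31 (SE 0.22, limma adjusted p = 8.0e-04). HMX1, the heme oxygenase gene, was lower by -0.84 (SE 0.13, limma adjusted p = 5.5e-04). HAP1, a heme-responsive regulator, was lower in the single mutant than in the wild type by -0.68 (SE 0.09, limma adjusted p = 3.1e-04). In the same comparison NCP1 was higher by 0.64 (SE 0.09, limma adjusted p = 4.0e-04). ANB1 was also higher there, by 2.19 (SE 0.45, limma adjusted p = 3.9e-03). Its mean signal was 101 ± 12.7 (SD) in the wild type. The single mutant had 1026 ± 586 (SD), a wide spread, and the double mutant 1315 ± 370 (SD). ANB1 passed the filter through the mutant arrays, where it is high, so its rise is given as a value of that gene. The count of genes called higher in the single mutant with the filter includes ANB1 and is not read as a result on the list. In the fit with the filter, 2 genes were called higher and 1 lower in the single mutant without wild-type replicate 1. Only 1 was called lower there without wild-type replicate 2. Quantile normalization gave 4 lower in the single mutant and 2 higher between the mutants, and poly-A scaling gave 2 lower between the mutants.

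Other multigene families of chromosome ends had 23 genes with a probe set. With no filter 7 were called lower and 5 higher in the single mutant relative to the wild type, with a median log2 difference of 0.05 beside -0.01 for all probe sets. Between the mutants 16 were called lower and 1 higher (median -0.62 beside -0.06). In the double mutant relative to the wild type 12 were called lower and 2 higher (median -0.48 beside -0.04). Of all probe sets, 23.4%, 36.9% and 38.9% were called lower in these comparisons and 26.1%, 27.7% and 33.8% higher. Of the 6 genes that passed the filter, 1 was read by an unshared probe set. In that fit 2 were called lower and 1 higher in the single mutant (median -0.34), 6 of 6 lower between the mutants and 5 relative to the wild type, beside 22.1%, 35.8% and 36.6% of all probe sets. Genes such as THI13, dim in the double mutant, passed the filter through the arrays where they are high. The counts with the filter are therefore not read as a result on the list. THI13 went from 1633 ± 60.7 (SD, n = 2) to 272 ± 69.4 (SD, n = 3) and 76.9 ± 24.4 (SD, n = 3), with steps of -2.17 (SE 0.15, limma adjusted p = 1.9e-05) and -0.98 (SE 0.14, limma adjusted p = 2.5e-04). AAD10, an aryl-alcohol dehydrogenase gene, went from 1661 to 1204 and 293, and the second step was -1.67 (SE 0.16, limma adjusted p = 3.2e-05). AAD4 was higher in the single mutant than in the wild type, by 1.03 (SE 0.21, limma adjusted p = 3.6e-03). With shared probe sets left out of the fit with the filter, 1 gene remained, called lower in each comparison of the double mutant and not in the single mutant.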

How the data were processed

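The deposited values are probe-set intensities on a linear scale, which the authors made with MAS5 and GCOS, per the submitters' processing notes. The mean of each array without its lowest and highest 2% of probe sets was 500.2 to 500.3, so the arrays had been scaled before deposit. The deposited instrument records were used for the fluidics station alone. RNA (5 µg per array) was prepared with hot phenol, per the labels' protocols. Depth does not apply to arrays.

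Probe sets were named from the platform annotation matched to the RefSeq table of genes, which gave 5498 probe sets of 1 S. cerevisiae gene. No array build is named, so gene order and chromosome are given without coordinates, and no sequences were used here. A probe set was above background on an array when it exceeded the 99th percentile of probe sets for genes outside that table. Of S. cerevisiae probe sets, 97.6% to 99.3% lay above it.

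No further normalization was applied. A pseudocount of 121 was added before taking log2, close to the 10th percentile of S. cerevisiae signals (120.909), and probe sets whose mean was among the lowest 20% were not tested (4398 remained). A single limma fit (version 3.58.1, R 4.3.3, lmFit followed by eBayes with its trend option) held all 8 arrays, and calls were made at a Benjamini-Hochberg adjusted p under 0.05. The steps were tested on simulated arrays. Since none of the other 15 COS and PAU genes passed the filter, they were read from the planned fit without it. Where a gene had several probe sets the brightest represented it.

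The members, lists and tests were chosen with earlier results of these data known. Named genes are the 7 members, up to 3 called genes per direction with the largest difference in each other family, up to 3 called genes with the smallest p in each further list, and the 3 nearest profiles of each member. Neighbouring genes, PAU4, PAU18, PAU21, COS12, VPS36 and DAN4 were named after their values were seen. Alternatives were other pseudocounts, scalings, filters, variance models, a block for the replicate number, shared probe sets left out, and each array left out in turn. Figures were drawn with matplotlib 3.10.9.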

Additional observations from a re-analysis of the deposited data

How the results depend on the processing

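With the filter, none of the other 5 COS and 10 PAU genes was tested, and 0 could be called. With no filter, 3 COS and 6 PAU genes were called lower in the single mutant relative to the wild type, 2 and 6 between the mutants, and 4 and 8 in the double mutant relative to the wild type. The alternatives to this fit were added after seeing the data. With a pseudocount of 1, the median log2 differences of the COS and PAU genes were -2.51 and -0.78, then 0.22 and -0.97, then -2.29 and -1.69, in the same order of comparisons. Between the mutants, quantile normalization and median centring each gave 0 COS and 3 PAU genes, and poly-A scaling 1 COS gene. With shared probe sets left out, 1 COS gene of 4 was called between the mutants, and the 1 PAU gene left was called in all comparisons. Leaving out 1 array gave 3 to 7 PAU genes (single mutant against wild type), 1 to 2 COS and 3 to 7 PAU genes (between the mutants), with the lowest counts without wild-type replicate 1, without double-mutant replicate 1 or 2 (COS), and without double-mutant replicate 1 (PAU). Median centring called COS12 higher in both double-mutant comparisons, although it is below background. The cause of these changes was not tested.

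Over all probe sets, the single mutant had 2227 calls, 1228 with poly-A scaling and 1407 to 2515 with 1 array left out (1432 without wild-type replicate 1 and 1407 without replicate 2). Fewer probe sets were tested when the dimmest 50% were left out, which gave 1377, 1930 and 2092 calls in place of 2227, 2971 and 3277. Scaling moved the balance of calls: 56.3% were higher in the single mutant, but 48.0% with median centring and 69.4% with either control scaling. Between the mutants 47.0% were higher, but 60.0% with median centring, 37.8% with hybridisation-control scaling and 68.8% with poly-A scaling, and relative to the wild type 50.9%, but 68.5% with poly-A scaling. The median of all genes between the mutants was -0.02, 0.11, -0.13 and 0.19 in these settings, and relative to the wild type 0.28 with poly-A scaling.

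For the 7 genes, 41 of 510 recomputed log2 differences moved by more than 1 SD between replicates, and 10 changed sign. The sign changes were COS2 between the mutants (overlapping arrays), the shared set of PAU23 in the single mutant, and the shared set of PAU17, which was 0.070 in place of -0.14 for the double mutant relative to the wild type with poly-A scaling. COS4, COS6, COS111, PAU9 and the unshared sets of PAU17 and PAU23 kept their direction in all alternatives run for each. For PAU23 the range between the mutants was 0.66 to 1.01.

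The replicate number as a block gave 2033, 2894 and 3196 calls over all probe sets, 3, 2 and 4 COS and 7, 6 and 8 PAU genes called lower with no filter. Same-numbered arrays deviated together with correlations of -0.09 to 0.14, so the numbers were not taken to pair the arrays.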
